A study of Canis lupus familiaris with 2 samples.

Results

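The miR-30 family was represented on the serum microarray by 5 spots, cfa-miR-30a, cfa-miR-30b, cfa-miR-30c, cfa-miR-30d and cfa-miR-30e, among the 291 dog miRNAs of the chip. They were chosen by name, as the dog probes whose miRNA number is exactly 30. The arrays compared serum of dystrophic dogs with that of normal dogs. The dystrophic animals carry CXMD_J (canine X-linked muscular dystrophy in Japan), a dog model of Duchenne muscular dystrophy in which dystrophin is lost, and all dogs were male and 2 months old. Serum of 3 dogs was combined for each condition before RNA was extracted, and each pool was read on 1 single-color 3D-Gene array with 1 spot for each miRNA. There is thus no replicate of either condition, no p-value is given, and every ratio compares 2 pools rather than 2 populations of dogs.

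miRNAs of this family carry a common seed, the short stretch near the 5′ end that pairs with target mRNAs, and so share many predicted targets. They are made in many tissues, heart, kidney and skeletal muscle among them, and are known for restraining connective tissue growth factor (CTGF) in the heart and for promoting the differentiation of cultured myoblasts. Outside the seed, miR-30a, miR-30d and miR-30e resemble one another most, and miR-30b and miR-30c form the other subgroup. Because all members are alike, a spot may also capture labelled RNA of a relative, and the share of each member in a spot is uncertain.

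The measured ratios of the family ran from 0.857 to 2.19. With a wider measure of spot noise, given below, none of these ratios was separated from another. The signals of miR-30a and miR-30d were about double in dystrophic serum, those of miR-30b and miR-30c were close to the normal level, and miR-30e was at the edge of detection. Of the 5 members, 4 were detected in both sera, 2 of these had a dystrophic over normal ratio above 2, and 0 had a ratio of 0.5 or less. Of all 142 dog miRNAs seen on both arrays, 19 (13.4%) had a ratio above 2 and 8 (5.63%) had a ratio of 0.5 or less. The median ratio was 1.51 over the 4 members and 1.09 over the 142 miRNAs. It was 0.965 over all 5 members when signals under the detection limit were set to the limit, but that value is the dystrophic signal of miR-30e over the limit of the normal array, a lower bound set by the limit and no measured ratio. In these counts a spot was taken as detected when its brightness was above the mean of the blank spots plus 2 SD, the blank spots having been trimmed by 5% at each end. This limit is permissive. It was passed by 21 of the 32 negative-control spots and 48 (26.5%) of the 181 spots without a probe on the normal array, and by 27 and 43 (23.8%) on the dystrophic array, so that a detected spot need not hold its miRNA. Of the 142 miRNAs, 102 were brighter than the mean negative control on both arrays. The blank mean was then subtracted, and each array was scaled to a median of 25 over its detected miRNAs.

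miR-30d stood clear of background on both arrays. In normal serum it had a normalized signal of 79.5 and in dystrophic serum one of 165, which gave a ratio of 2.07. Before subtraction the spot read 194 and 315 units of intensity, and none of the 1408 blank spots, 181 spots without a probe or 32 negative-control spots was as bright on either array. With a single spot on each array, the effect of spot noise was described by moving both signals by 2 blank SD (blank SD 3.94 for the normal array, 4.12 for the dystrophic) in opposite directions. The ratio of miR-30d then ran from 1.80 to 2.40. This range stayed above 1 but included values below 2, so that its place above the 2-fold limit lay within the noise of the spots.

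The normalized signal of miR-30a was 29.6 in normal serum and 64.9 in dystrophic serum, a ratio of 2.19. The noise range was 1.54 to 3.35, which was again above 1 and included 2. Its normal signal was much nearer to background than its dystrophic signal. On the normal array 15 blank spots (1.07%), 8 of the spots without a probe and 4 negative-control spots were at least as bright, compared with 1 blank spot (0.0710%) and no spot of the other kinds on the dystrophic array. The precision of the ratio of miR-30a was thus limited by the reading of normal serum. Of the same 142 miRNAs, 15 had a higher ratio than miR-30a and 17 had a higher ratio than miR-30d.

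The normal and dystrophic signals of miR-30b were 26.8 and 25.7 after normalization, a ratio of 0.958, and its noise range was 0.539 to 1.75. For miR-30c the signals were 24.6 and 21.1, and the ratio of 0.857 had a range from 0.435 to 1.70. Neither ratio was separable from 1, and these ranges also admit changes in either direction, so they do not show that the level was equal. Without scaling between the arrays the ratios were 1.20 for miR-30b and 1.08 for miR-30c, on the other side of 1. Both lay close to background in both sera. At least as bright as the spot of miR-30b were 1.28% of the blank spots in the normal reading and 0.568% in the dystrophic one, and the shares for miR-30c were 1.78% and 0.994%. Of the 32 negative controls, 5 and 2 reached miR-30b, while 8 and 6 reached miR-30c.

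The spot of miR-30e read 122 on the normal array, under the limit of 126, and 125 on the dystrophic array, just above the limit of 124. It was thus called detected for the dystrophic pool only, at 7.90 after normalization. This is lower than 8.30, the lowest signal detected in normal serum, and no fold change is given. On the dystrophic array 93 blank spots (6.61%) and 26 of the 32 negative-control spots were at least as bright. A level of miR-30e above background was therefore not established in either serum.

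**Figure D1:**
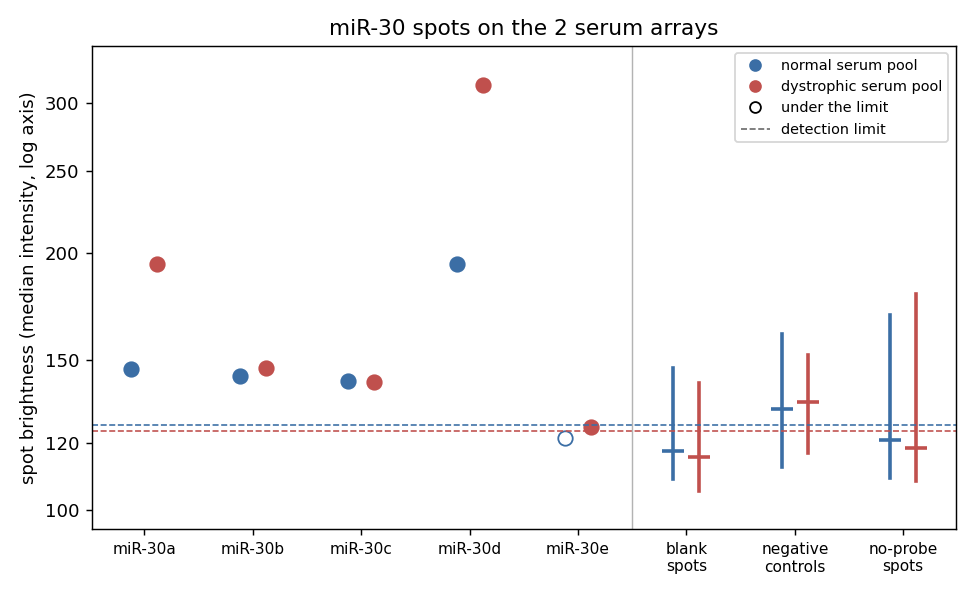
Brightness of the spot of each miR-30 member (median intensity before background subtraction, log axis) on the arrays of normal and dystrophic serum, with dashed detection limits at 126 and 124. On the right, bars run from the 1st to the 99th percentile of blank, negative-control and no-probe spots, with a dash at the median. miR-30d and, in dystrophic serum, miR-30a stand above these bars, while miR-30b and miR-30c lie within the bars of the negative controls and the no-probe spots.

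The difference between members was then examined directly, because a scaling factor common to an array shifts all ratios alike and leaves the quotient of any pair of ratios unchanged. The ratio of miR-30d was 2.16 times that of miR-30b, with a noise range of 1.03 to 4.45 when all 4 signals were moved by 2 blank SD in the least and the most favorable directions. It was 2.41 times that of miR-30c (1.06 to 5.52). The ratio of miR-30a was 2.29 times that of miR-30b (0.881 to 6.21) and 2.56 times that of miR-30c (0.905 to 7.69), so that for miR-30a both ranges reached below 1. miR-30a and miR-30d differed by a quotient of 1.06 (0.640 to 1.86), within the noise. The ranges of miR-30d stayed above 1 by little, and with a wider measure of spot noise, given below, they did not.

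**Figure D2:**
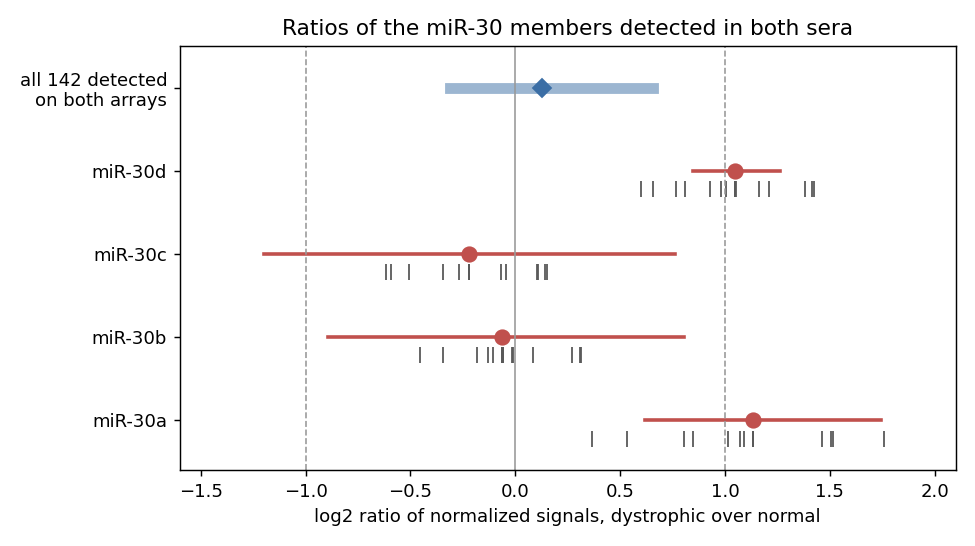
Log2 ratio of normalized signals, dystrophic over normal, for the 4 miR-30 members detected in both sera (points), with the range from moving each signal by 2 blank SD (lines) and the values under other processing settings (ticks). The diamond and bar give the median and quartiles of the 142 miRNAs detected in both sera, and dashed lines mark 2-fold changes. miR-30a and miR-30d lie to the right of miR-30b and miR-30c.

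Members with a measured ratio above 2 and members with one near 1 came from neighboring genes. In the RefSeq annotation of the dog, 6 genes encode the 5 members, since miR-30c is made from MIR30C-1 and MIR30C-2. They lie in pairs of nearest miRNA neighbors. MIR30B and MIR30D are within a long non-coding RNA gene, MIR30A and MIR30C-2 are within another, and MIR30E and MIR30C-1 are within NFYC, which encodes a subunit of the transcription factor NF-Y. Each of the first 2 pairs held 1 member with a ratio above 2 and 1 with a ratio near 1, namely miR-30d (2.07) beside miR-30b (0.958) and miR-30a (2.19) beside miR-30c (0.857). The array cannot separate the products of the 2 genes of miR-30c. In the subgroups given above as background, the members above 2-fold fall together, and so do the other 2 members detected in both sera. The subgroups were not computed from sequences here, and miR-30e, placed with miR-30a and miR-30d, gave no ratio. By the wider measure of spot noise given below, the 2 groups of ratios were not separated. Whether spots of like members captured one another's RNA was not tested.

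How far a single spot can be trusted was read from control probes printed 8 times, matched in brightness on the normal array. There were 4 such probes, S-Probe1, S-Probe2, S-Probe7 and S-Probe22, with a mean net signal (after subtraction, before scaling) between 20 and 100 on the normal array, which covers the 28.5, 25.8, 23.7 and 76.5 of miR-30a, miR-30b, miR-30c and miR-30d. On the dystrophic array the means of these probes ran from 39.2 to 79.3. That covers the 78.5 of miR-30a but not the 31.1 of miR-30b, 25.5 of miR-30c or 199 of miR-30d. The SD between the 8 spots of a probe ran from 3.40 to 13.0 units. Of the 8 SDs, 7 exceeded the blank SD of their array, so the ranges above may be too narrow. The SD of 13.0 was that of S-Probe22 on the dystrophic array, the probe nearest to miR-30a there, so a median SD may also be too small. With the median of the 4 SDs of each array (4.47 and 7.38) in place of the blank SD, the range was 1.35 to 3.80 for miR-30a and 1.72 to 2.52 for miR-30d, both still above 1. The quotient of miR-30d then ran from 0.793 to 6.74 against miR-30b and from 0.790 to 9.59 against miR-30c, so that no member above 2-fold was separated from miR-30b or miR-30c by this measure. Taken spot by spot, as a miRNA is read, the 32 ratios between the arrays ran from 0.681 to 1.61 after the same scaling, with a median of 0.962. The single-spot ratios of miR-30a and miR-30d were above this range and those of miR-30b and miR-30c within it. Over the 8 control probes with a net signal of at least 5 times the 2 SD limit on both arrays, S-Probe1 and S-Probe22 among them, the ratio of the means was between 0.679 and 0.839 for 7 and was 1.76 for S-Probe6. That 1 probe thus differed between these arrays by nearly as much as miR-30a and miR-30d did. What the control probes capture is not given in the sources used here.

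The 2-fold count rested on the processing. Both miR-30a and miR-30d were above 2 in 10 of 16 alternative settings, miR-30a alone was in 1, and neither was in the remaining 5. When the arrays were scaled on the 142 miRNAs detected on both, the ratio was 1.80 for miR-30a and 1.70 for miR-30d, while without scaling it was 2.76 and 2.60. Over all miRNAs detected in both sera, 12 then exceeded 2-fold and 19 lay at or below 0.5-fold with the former setting, and 34 and 3 did with the latter, compared with 19 and 8. The same counts were 39 and 3 with scaling on the spike controls, 10 and 22 with quantile normalization, and 6 and 1 without background subtraction. Relative to the median ratio of the 142 miRNAs, miR-30a was 2.01 times, miR-30d 1.89 times, miR-30b 0.877 times and miR-30c 0.784 times the median. A factor common to an array leaves these values unchanged, but the background treatment does not. For miR-30a and miR-30d they were 1.25 and 1.52 without background subtraction, 1.37 and 1.66 with normexp, and 2.94 and 2.01 with the negative controls as background, the last over 102 miRNAs. With the local background subtracted, miR-30d was 1.15 times the median of 21 miRNAs, and miR-30a had no ratio. Restricting the arrays to signals of 25 or more in both sera, miR-30a, miR-30b and miR-30d remained among 71 miRNAs, of which 8 (11.3%) had a ratio above 2, and miR-30c was left out.

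Serum miRNAs come from many tissues and from blood cells, and more release from a tissue cannot be told apart from more miRNA per cell in these pools. Lists of miRNAs known for a tissue were therefore read on the same arrays. Of 8 miRNAs of skeletal and cardiac muscle, 4 were detected in both sera and all 4 had a ratio above 2. They were miR-206 and the like-named miR-133a, miR-133b and miR-133c. Whether the miR-133 spots captured one another's RNA was not tested. In dystrophic serum none of the negative-control spots was as bright as any of these 4. In normal serum 5 of the 32 negative controls were at least as bright as miR-133b, 13 as miR-133a, 16 as miR-133c and 21 as miR-206. The summed signal of the list's detected members was 80.0 in normal and 6616 in dystrophic serum, and miR-133b, a miRNA of striated muscle, had the highest signal (27.8 and 2426). miR-1 was called detected only for the dystrophic pool, miR-499 only for the normal pool, and the cardiac miR-208a and miR-208b in neither. The normal signals of miR-206 (11.0) and miR-133c (13.8) were below the mean of the negative controls, 14.7 on the same scale, and that of miR-133a (15.1) was at it. These 3 readings did not stand clear of the negative controls, so the size of their ratios was not established. For miR-133b the ratio was 87.1, with a noise range of 67.1 to 124. With the negative controls as background it was 184. The muscle ratios were not compared with those of miR-30a and miR-30d.

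Of all 142 miRNAs detected in both sera, 59 (41.5%) had a ratio below 1. The 4 red-cell miRNAs detected in both sera all had ratios below 1. In the 16 alternative settings the same 4 were below 1 wherever a ratio was given, except for miR-92a, which was at 1.05 without scaling, 1.08 with scaling on the spike controls, 1.07 with untrimmed blank spots and barely above 1 without background subtraction. Of 7 listed, 6 were on the chip, 4 were detected in both sera, 2 had a ratio of 0.5 or less and 0 had one above 2, with a median of 0.521. The ratio of miR-16 was above 0.5 without background subtraction (0.637) and with normexp (0.541). That of miR-92a was 0.203 with the local background subtracted. The summed signal of detected members was 1890 in normal and 670 in dystrophic serum. The signal of miR-451, an erythroid miRNA, was the highest of the list in normal serum, 1276, and fell to 250, a ratio of 0.196. In dystrophic serum that of miR-92a, 272, was higher. miR-16 had a ratio of 0.346, miR-25 0.696 and miR-92a 0.835. miR-144 was not detected in either serum, and miR-185 was detected in dystrophic serum alone, at 11.4, which is 1.39 times the limit of the normal array and so points the other way, although this reading was below the mean of the negative controls on its array. The part of muscle or red-cell miRNAs in the ratios of the miR-30 members was not tested.

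Of 7 miRNAs of platelets and white cells, 4 were detected in both sera and 1, miR-142, had a ratio above 2 (2.24), with a noise range of 1.04 to 7.70 that included 2 and a normal signal below the mean of the negative controls. The other 3 were miR-223, a myeloid miRNA (0.549), miR-150, a lymphocyte miRNA (0.743), and miR-191 (0.756, with a range of 0.533 to 1.07), and the median of the list was 0.750. Of 3 liver miRNAs, 2 were detected in both sera, miR-122, the main hepatocyte miRNA (0.943), and miR-192 (0.889). The spots of miR-122 were at the detection limit, with a noise range of 0.0791 to 33.4 that gives its ratio no direction, and that of miR-192 was 0.520 to 1.53. The let-7 family, like miR-30 a group of many members with a common seed, had 8 probes, of which 4 were detected in both sera. None of these was above 2-fold and 1, let-7b, was at 0.5-fold or less (0.465), with a noise range of 0.240 to 0.810 on both sides of that limit. The ratio was 0.691 for let-7a, 0.684 for let-7c and 1.09 for let-7e, and the median was 0.687, compared with 1.51 for the 4 miR-30 members with a ratio. The noise range of let-7e was 0.178 to 18.1, and those of let-7a and let-7c included 1. The difference between the families was not tested.

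The miRNAs nearest in log2 ratio to the mean of miR-30a and miR-30d, a likeness over 2 arrays only, were miR-204 (ratio 2.13), miR-10b (2.06) and miR-27b (2.23). Those nearest to the mean of miR-30b and miR-30c were miR-26a (0.910), miR-148a (0.914) and miR-328 (0.891). The noise range was 0.717 to 32.0 for miR-204 and 0.0556 to 52.7 for miR-148a, whose spots were near the detection limit, so their nearness carries little weight. With 2 readings for each miRNA, many pairs are alike by this measure.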

How the data were processed

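Serum RNA of each pool was labelled with Cy5, hybridized to a 3D-Gene chip and read by the authors with 3D-Gene Extraction software (version not given in the sources used here). The deposited scanner output holds the median intensity of each spot, not normalized, and its local background. A deposited table holds intensity values normalized by the authors, which differed from the recomputed ones by at most 0.0498 units, with the same miRNAs detected.

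Blank subtraction, detection, scaling (factors 1.04 for normal and 0.827 for dystrophic serum) and fold limits, those of the study, were as described above. A miRNA spot that the scanner did not mark as usable at any gain was not called detected. Blank and control spots were used whatever their mark. On the normal array 159 dog miRNAs were detected, and 188 on the dystrophic array. The number of arrays limits the precision. The steps were also run on simulated data, the outcome of which is not given or used here.

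All 5 members were named. Of each list (muscle, red-cell, platelet and white-cell, liver, let-7) the up to 4 members with the highest summed net signal among those detected on both arrays were named, with the 3 miRNAs nearest in ratio to each pair of members. Other list members were named after their values were seen. Members and lists were chosen with earlier results of these data known. Gene neighbors came from RefSeq (UU_Cfam_GSD_1.0). Mature sequences were not used here. Of the alternatives, 14 were planned and 3 added after seeing the data, 1 of which changes noise ranges only (median SD of control probes for blank SD). Software was Python 3.11.15 (numpy 2.4.6, pandas 2.3.3, matplotlib 3.10.9) and R 4.3.3 (limma 3.58.1).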

Additional observations from a re-analysis of the deposited data

How the results depend on the processing

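Of 124 values recomputed under 16 alternatives, 106 stayed inside the noise range or within 1.5 times the count, and 18 moved beyond it. Of the called ratios, 0 changed direction. The tally is a weak measure, since it includes the deposited table and a count at 0.5-fold or less that was 0 throughout. All values of miR-30b and miR-30c stayed inside their wide noise ranges, yet each ratio was above 1 in 4 alternatives. Of 14 alternatives that gave 4 ratios, 7 cannot change the order of the members. In the other 7, the deposited table (the same values rounded) among them, miR-30a and miR-30d had higher ratios than miR-30b and miR-30c. Without background subtraction the ratio was 1.29 for miR-30a and 1.57 for miR-30d, and with normexp and an offset of 50 it was 1.45 and 1.75, with 0 members above 2-fold in both settings; a background or offset left in both signals draws ratios toward 1 by construction. Subtracting the local background left 1 member detected in both sera, miR-30d, at a ratio of 1.97, close to the reported one, and thus 0 above 2-fold. The ratio of miR-30d was 2.66 with untrimmed blank spots, 2.60 without scaling, 2.68 with scaling on the spike controls, 1.70 with scaling on miRNAs detected on both arrays and 1.52 with quantile normalization, and in the last 2 settings 0 members were above 2-fold. Detection at 3 SD left 1 member above 2-fold, miR-30a (2.02), with miR-30d at 1.90, inside its noise range. With signals under the limit set to the limit, the family median was 0.965, the lower bound that the limit sets for miR-30e and no measured ratio. With the negative controls as background, the ratio of miR-30a was 3.38. The cause of the other moves was not tested. Spike-control scaling and the negative-control background were chosen after seeing the data. The median log2 ratio over all miRNAs moved by 0.33 without scaling, 0.38 with the spike controls, -0.28 with scaling on miRNAs detected on both arrays, -0.39 with quantile normalization, 0.32 with untrimmed blank spots, -0.35 with signals set to the limit, -0.12 with detection at 3 SD and 0.66 with local background, the last 3 and the untrimmed spots over other sets of miRNAs. Other scanner gains could not be tried, because the files hold 1 signal for each spot. No paired analysis was possible because there was a single array per condition, and for the same reason no replicate could be left out. Background limits miR-30b, miR-30c, miR-30e and the normal reading of miR-30a.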
